A study of Mus musculus with 165 samples.

Results

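Ribosomal protein genes encode the proteins of the cytosolic ribosome. The members described here were the rows of the brain and liver count tables whose symbol begins with Rps, Rpl or Rplp and goes on as a cytosolic ribosomal protein name. Of 55471 rows in each table, 83 matched the pattern, and 3 annotated pseudogenes (Rps4l, Rpl32l and Rpl6l) were left out. The remaining 80 genes comprised 30 of the small and 50 of the large subunit. Read counts had been obtained from male C57BL/6J/Ukj mice aged 3, 9, 15, 24 or 28 months, which carried no allele or treatment and were held only to grow old. Brain was represented by 15, 16, 16, 17 and 18 libraries in that order of age, and liver by 16, 16, 16, 17 and 18. Poly(A)-selected stranded libraries were made from QIAzol and chloroform extracts of the tissues in 3 preparations, called preps in the labels. Where age and number match, the libraries of the 2 tissues were taken to come from 1 mouse.

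The small subunit decodes the message and the large subunit joins amino acids; both are built in the nucleolus and nucleus from ribosomal RNA and from proteins made in the cytoplasm. The messages of these genes are abundant in most cells and usually short. Many begin with a 5′-terminal oligopyrimidine (TOP) run, a C followed by C or T bases right at the transcript's start, through which mTORC1 and the RNA-binding protein LARP1 set how strongly the message is translated. A few genes have paralogs with a restricted pattern of expression, such as Rpl3l, known from heart and skeletal muscle, and Rpl10l and Rpl39l, known from testis.

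The start sites of members on which the results turn are printed below, as examples of windows with a TOP run at the start, with a short run beside it and with none. The windows with a run at the start are over-represented among the 8, since most members with a RefSeq start, and not only paralogs, had no such run. Each window holds 30 bases on the gene's strand, from 10 bases before the annotated RefSeq start on, in build GRCm38.p6. Capitals mark a C followed by at least 4 C or T bases that begins within 5 bases of the start. Rps6 (chr4:86857348-86857377, minus strand), Rps18 (chr17:33955646-33955675, minus), Rps27 (chr3:90213629-90213658, minus), Rps15a (chr7:118116128-118116157, minus) and Rpl38 (chr11:114668570-114668599, plus) had the run at the annotated start itself. Rpl39 (chrX:37085203-37085232, minus) and Rps27l (chr9:66946076-66946105, plus) had a short run beside it. Rpl36al (chr12:69184048-69184077, minus) had none in this window.
Rps6: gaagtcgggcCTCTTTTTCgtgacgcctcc
Rps18: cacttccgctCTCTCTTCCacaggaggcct
Rps27: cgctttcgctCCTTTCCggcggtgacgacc
Rps15a: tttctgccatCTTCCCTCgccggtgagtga
Rpl38: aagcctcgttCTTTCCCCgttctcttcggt
Rpl39: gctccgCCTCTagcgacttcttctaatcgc
Rps27l: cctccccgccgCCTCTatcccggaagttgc
Rpl36al: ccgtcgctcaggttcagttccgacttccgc

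RefSeq start sites were available for 60 of the 80 members. A run at the annotated start itself was present in 13 of those 60 genes (21.7%), against 3.01% of 27025 genes in the same table. Within 5 bases of the start it was present in 46.7% of the members and 21.2% of all genes. The letters CCGGAA, the core of the sites of ETS factors, were found on either strand of the 300 bases around the start (250 before and 50 from it on) in 53.3% of the members and 16.7% of all genes. The letters AAGATGGC of the YY1 site occurred in 8.33% and 3.19%, the E-box CACGTG in 10.0% and 8.09%, and the TATA box letters TATAAA in 10.0% and 15.7%. A match in these windows describes the sequence only, and annotated starts can lie some bases away from the base at which transcription begins.

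Libraries held 11460609 to 73390216 counts in brain and 5823039 to 57490197 in liver. Levels are given as CPM, counts relative to library size, after scaling within each tissue by the trimmed mean of M-values (TMM). Brain libraries carried the neuronal, oligodendrocyte and astrocyte markers, and liver libraries the hepatocyte markers, as their labels said. In 9 of the 82 brain libraries, 4 of them of 3 months and 2 of 28 months, summed choroid plexus markers or summed pituitary markers were above 100 CPM, against at most 70.3 and 43.8 CPM in the other 73. The hepatocyte marker Ttr, which choroid plexus also makes, was at 1250 to 5910 CPM in the 7 libraries with high choroid plexus markers and at most 505 CPM elsewhere in brain, while the other hepatocyte markers together had a median of 0.43 CPM and a maximum of 21.5. Every p-value printed is from edgeR's quasi-likelihood test with age and prep as terms, adjusted by the Benjamini-Hochberg method over all genes tested, and a gene is said to be called when the adjusted p is under 0.05. Within a tissue these p-values rest on the spread between mice. In fits over both tissues the 2 libraries of a mouse count as separate, unless the mouse is named as a block. In tissue RNA, fewer cells of a type and less RNA per cell cannot be told apart.

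At 3 months, 56 of the 80 members had a mean of at least 100 CPM in brain and 64 did in liver. The medians over members were 133.6 and 180.7 CPM. Under 1 CPM were 4 members in brain and 3 in liver. Between mice of 3 months, the median coefficient of variation of members at 10 CPM or more was 10.7% in brain and 12.2% in liver. Per kilobase of transcript, the highest in brain were Rplp1, an acidic protein of the ribosomal stalk, at a mean of 700.2 CPM per kilobase, Rps29 at 584.6 and Rps15 at 410.8. In liver the highest were Rpl10, which sits near the peptidyl transferase centre, at 726.4, Rplp1 at 651.1 and Rps2 at 609.9.

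Members with low values were mostly the paralogs and genes whose exons are shared with another annotated gene. Rpl10l had 2 counts over the 15 brain libraries of 3 months and 0 over the 16 liver libraries. Rpl39l had 42 and 10. Both were too low for the test in either tissue, and Rpl3l was too low in liver, so 78 members were tested in brain and 77 in liver. Rpl24, Rpl13a, Rpl36al and Rps10 shared 47.0%, 29.4%, 24.5% and 20.6% of their exon bases with another gene on the same strand, and their levels of 1.51, 21.1, 0.627 and 3.16 CPM in brain lay far below most members. How reads in shared exons or near-identical pseudogenes were counted is not given in the sources used here, so the values of these 4 genes are uncertain. The 299 rows named as ribosomal protein pseudogenes took about 0.003% of the counts in brain libraries of 3 months (median 0.00285%), and 58 members had at least 1 such row.

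All members together took a small share of each library. In brain at 3 months the share was 0.963% at its lowest, 1.13% at the median and 1.42% at its highest. At 28 months it was 1.03%, 1.22% and 6.29%. The highest value belonged to replicate 15, and without that library the highest was 1.65%. At 24 months replicate 13 stood at 3.41%, and the other 16 libraries lay between 1.09% and 1.48%. In liver the medians at 3, 9, 15, 24 and 28 months were 1.52%, 1.502%, 1.53%, 1.56% and 1.77%, with a range of 1.24% to 1.70% at 3 months and of 1.38% to 2.27% at 28 months. The groups overlapped in both tissues.

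**Figure D1:**
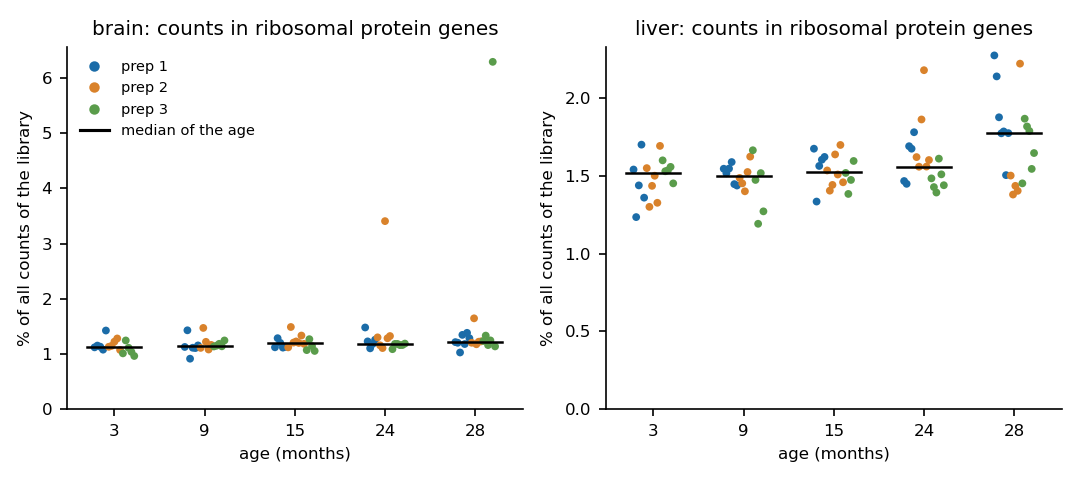
Share of all counts that the 80 ribosomal protein genes took (y axis, percent) by age in months (x axis) in brain and liver; each point is 1 library, coloured by prep, and each black bar marks the median of an age. Brain replicate 15 of 28 months (6.29%) and replicate 13 of 24 months (3.41%) lie far above every other brain library, and liver medians run from 1.52% at 3 months to 1.77% at 28 months.

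Those 2 brain libraries also differed from the rest in genes that are not members. A short-transcript score was computed for each library as the mean log2 CPM of other protein-coding genes with transcripts of up to 1000 bases minus that of genes with 4000 bases or more. It was 1.19 in replicate 15 of 28 months and 0.18 in replicate 13 of 24 months, and at most -1.08 in every other brain library. Set against the median of the other libraries of its age, replicate 15 of 28 months had 77 of 78 members higher, with a median log2 ratio of 2.62, while 729 short genes outside the family stood at 1.80 and 4318 long genes at -0.94. In replicate 13 of 24 months the members stood at 1.62 (78 of 78 higher), the short genes at 1.21 and the long genes at -0.53. These libraries had 11460609 and 19654091 counts. Brain results below are led by the fit without the pair, and the values with all libraries stand beside them.

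**Figure D2:**
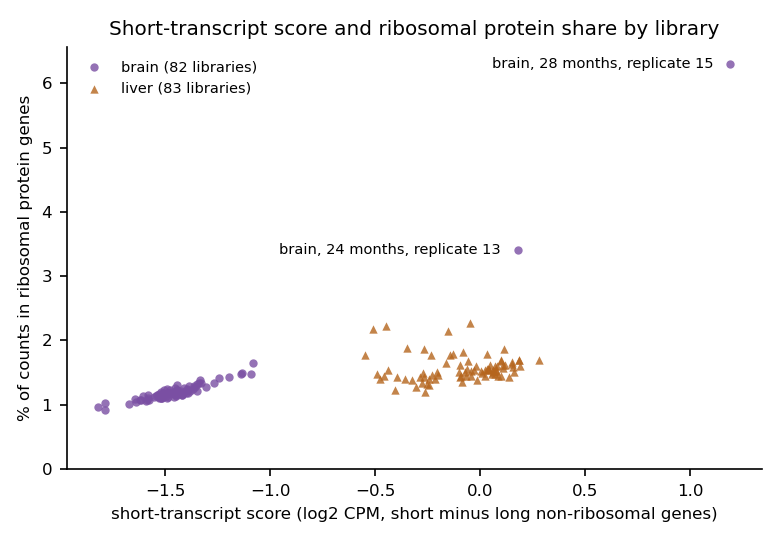
Share of counts of the ribosomal protein genes (y axis, percent) against the short-transcript score (x axis, log2 units) for each brain and liver library, 1 point each. Brain replicate 15 of 28 months (score 1.19) and replicate 13 of 24 months (0.18) lie apart from the other brain libraries.

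The first comparison asked how the family's messages differed with age in brain. With all libraries, 68 of 78 members were higher at 28 than at 3 months and none was lower, with a median log2 fold change of 0.48. Of all 18711 genes tested, 28.3% were called and 16.3% were higher. The count rested on replicate 15. Without that library alone, 6 members were called (29.4% of all genes) and the median was 0.13. Without both libraries, 32 members were higher and none lower, with a median of 0.12 beside a median of -0.004 over all genes. In that fit 34.1% of all 18692 genes were called, with 17.5% of all genes higher and 16.6% lower. When the 9 libraries high in choroid plexus or pituitary markers were left out too, 38 were higher (31.1% of all genes called) with a median of 0.15. All 32 were among the 68, and the sign of all 32 was shared by each prep when fitted on its own. The size was not: without both libraries preps 1, 2 and 3 had medians of 0.03, 0.16 and 0.18 and 0, 0 and 43 members called (10.6%, 4.33% and 16.4% of all genes). The 32 comprised 12 of 30 small-subunit and 20 of 48 large-subunit genes.

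A set of clock genes also differed with age in brain. A clock score was computed from Dbp, Tef, Per1, Per2, Per3, Nr1d1, Nr1d2, Ciart and Bhlhe41 minus Arntl, Npas2 and Clock, each scaled over the libraries of a tissue. Its median in brain was -0.29 at 3 months (range -0.72 to -0.05) and 0.76 at 28 months without replicate 15 (range -0.66 to 2.26). Replicate 15 itself stood at 4.435, above every other brain library. At 3 months the medians of preps 1, 2 and 3 were -0.22, -0.32 and -0.44. At 28 months they were 1.63, -0.07 and 0.81, with replicate 15 in prep 3. The members' median changes in those preps without both libraries were 0.03, 0.16 and 0.18. With this score as a term and without both libraries, 6 members were called higher and 2 lower, where 29.6% of all genes were called, and the median was 0.00. With the short-transcript score as a term in its place, 26 were higher and 2 lower (37.3% of all genes), with a median of 0.04. The parts of the score and of age in the result cannot be told apart where they move together. The labels used here give no time of day.

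Markers of cell types also moved between the ages in brain, where the ranges of 28 months include replicate 15. Summed microglia and macrophage markers were at 186 to 240 CPM at 3 months and 194 to 574 at 28 months (5 of 7 genes with a higher median, and 2 with a median of 0), and astrocyte markers at 1110 to 1570 and 1400 to 2140 (2 of 3). Oligodendrocyte markers were at 1670 to 8380 and 2520 to 13100 (3 of 3). T lineage markers were low, at 0.207 to 2.23 and 0.557 to 1.61 (5 of 5), as were B lineage markers at 7.92 to 35.3 and 9.96 to 34.8 (6 of 6). Red cell markers were at 29.9 to 234 and 34.4 to 725 (5 of 5) and neuron markers at 3490 to 4380 and 1650 to 4690 (3 of 3). Choroid plexus markers were at 26.3 to 506 and 14.5 to 322 (0 of 4), and markers of proliferating cells at 1.89 to 7.87 and 0.504 to 4.21 (0 of 4). None of these markers was at 0 in every library of 3 or 28 months. Mitochondrially encoded genes took 4.28% to 5.96% of the counts at 3 months (median 4.72%) and 4.24% to 7.08% at 28 months (median 5.30%) without replicate 15, which stood at 3.00%. The part of these cells and of the mitochondrial share in the members' changes was not tested.

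Of the large subunit, Rpl39, a small basic protein that lines the exit tunnel, had the largest change without both libraries. Its level was 29.1 CPM at the lowest, 36.2 at the median and 43.9 at the highest at 3 months, and 31.3, 42.4 and 60.7 at 28 months, a log2 fold change of 0.32 ± 0.07 (SE; adjusted p = 0.000189). The upper libraries of 28 months lay above every library of 3 months, while the lower ones overlapped with them. Rpl21 stood at 202, 232 and 284 CPM at 3 months and at 246, 268 and 364 at 28 months (0.22 ± 0.04, adjusted p = 3.65e-05). Rpl3, whose product reaches towards the peptidyl transferase centre, stood at 394, 429 and 497 CPM and then at 441, 494 and 605 (0.20 ± 0.04, adjusted p = 5.37e-06). For Rpl3 and Rpl21 every library of 28 months kept in this fit lay above the median of 3 months, and the ranges overlapped. Rpl14 rose by 0.18 ± 0.04 (adjusted p = 0.000565). Rpl5, which with Rpl11 and the 5S ribosomal RNA forms a particle that can bind Mdm2, rose by 0.14 ± 0.03 (adjusted p = 0.000615). Rpl11 itself did not pass the test (0.10 ± 0.05, adjusted p = 0.148). With all libraries the log2 fold changes were 0.65 for Rpl39, 0.69 for Rpl21, 0.57 for Rpl3, 0.73 for Rpl14 and 0.29 for Rpl5. In that setting, Rpl3, Rpl5 and Rpl39 were called in each of the 33 fits that left out 1 library of 3 or 28 months.

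Of the small subunit, Rps27, a zinc-binding protein, had the largest change without both libraries. Its level was 86.2, 115 and 158 CPM at 3 months and 102, 130 and 186 at 28 months, a log2 fold change of 0.21 ± 0.07 (adjusted p = 0.00915). Rps4x, the X-linked gene of the small subunit, rose by 0.17 ± 0.04 (adjusted p = 0.000138). Rps19, the gene most often mutated in Diamond-Blackfan anaemia, rose by 0.16 ± 0.06 (adjusted p = 0.0324), and Rps27a, which encodes a fusion of ubiquitin and a ribosomal protein, by 0.15 ± 0.05 (adjusted p = 0.0116). Rps6, the target of the S6 kinases, stood at 143, 152 and 178 CPM at 3 months and at 151, 165 and 217 at 28 months (0.12 ± 0.04, adjusted p = 0.00827). The ranges of the ages overlapped for Rps27 and for Rps6. With all libraries the log2 fold changes were 0.54 for Rps4x, 0.65 for Rps19, 0.45 for Rps27a and 0.21 for Rps6. With the short-transcript score as a term and without both libraries, Rps19 was at 0.055 ± 0.027 and no longer called (adjusted p = 0.0936), and Rps27 was at 0.11 ± 0.03 (adjusted p = 0.00676). The stalk genes did not pass the test without both libraries: Rplp0 differed by 0.10 ± 0.05 (adjusted p = 0.08), Rplp1 by 0.09 ± 0.08 (adjusted p = 0.353) and Rplp2 by 0.12 ± 0.07 (adjusted p = 0.161). Their log2 fold changes with all libraries were 0.28, 0.71 and 0.92.

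The largest changes with all libraries were carried by replicate 15. Rpl24 was at 1.15 ± 0.32 (adjusted p = 0.00453) with it and 0.18 ± 0.09 (adjusted p = 0.115) without both libraries. Its level in replicate 15 was 44.2 CPM, and no other library of 28 months was above 2.46 CPM. Rps21 moved from 0.88 ± 0.25 to 0.18 ± 0.09, Rpl38 from 0.88 ± 0.25 to 0.17 ± 0.06, Rps28 from 0.75 ± 0.23 to 0.14 ± 0.07, and Rps27 from 0.92 ± 0.24 to 0.21 ± 0.07. Of these, Rpl38 (adjusted p = 0.0154) and Rps27 were still called without both libraries. At the other end were Rps10 (-0.14 ± 0.07, adjusted p = 0.138), Rpl3l (-0.06 ± 0.12, adjusted p = 0.773), Rpl13a (-0.05 ± 0.07, adjusted p = 0.588), Rps27l (-0.02 ± 0.07, adjusted p = 0.877) and Rps2 (0.01 ± 0.07, adjusted p = 0.905), none of which passed the test. With the short-transcript score as a term in the same libraries, Rpl13a (-0.16 ± 0.04, adjusted p = 0.000486) and Rps2 (-0.10 ± 0.04, adjusted p = 0.0376) were the 2 called lower.

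Changes at the younger ages in brain were smaller. No member was called at 9 against 3 months (background 0.315%) or at 15 against 3 months (background 0.871%) by edgeR. Without both libraries edgeR also called 0 at each of these ages (background 0.942% and 1.87%), with 4 at an unadjusted p under 0.05 at both ages (2373 and 2549 of all 18692 genes). With all libraries the number with an unadjusted p under 0.05 was 0 at both ages by edgeR. There 59 and 163 of all 18711 genes passed even the adjusted threshold. By DESeq2 the number was also 0, and its number for all genes is not given here. By limma voom with sample weights, which called 0, it was 17 and 30 (3265 and 3510 of all 18711 genes). At 24 against 3 months 0 members were called (background 10.1%), with 5 at an unadjusted p under 0.05 (4359 of all genes), 0 calls by DESeq2 (13.0% of all genes) and 48 by limma voom (26.5% of all genes). Without both libraries, 6 were called higher at 24 months, where 17.1% of all genes were called and 9.40% were higher. These were Rps27 (0.19 ± 0.07, adjusted p = 0.0373), Rpl21 (0.15), Rpl17 (0.14), Rpl3 (0.12), Rps4x (0.12) and Rpl4 (0.11). The count became 20 when the libraries high in choroid plexus or pituitary markers were left out as well (15.9% of all genes). At 28 against 24 months 0 were called with all libraries (background 1.09%) and 0 without both (background 3.58%). There the counts at an unadjusted p under 0.05 were 15 and 3 (2326 and 3197 of all genes). DESeq2 and limma voom also called 0, and their shares over all genes are not given here. The medians at 9, 15 and 24 against 3 months were 0.06, 0.07 and 0.10 without both libraries.

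**Figure D3:**
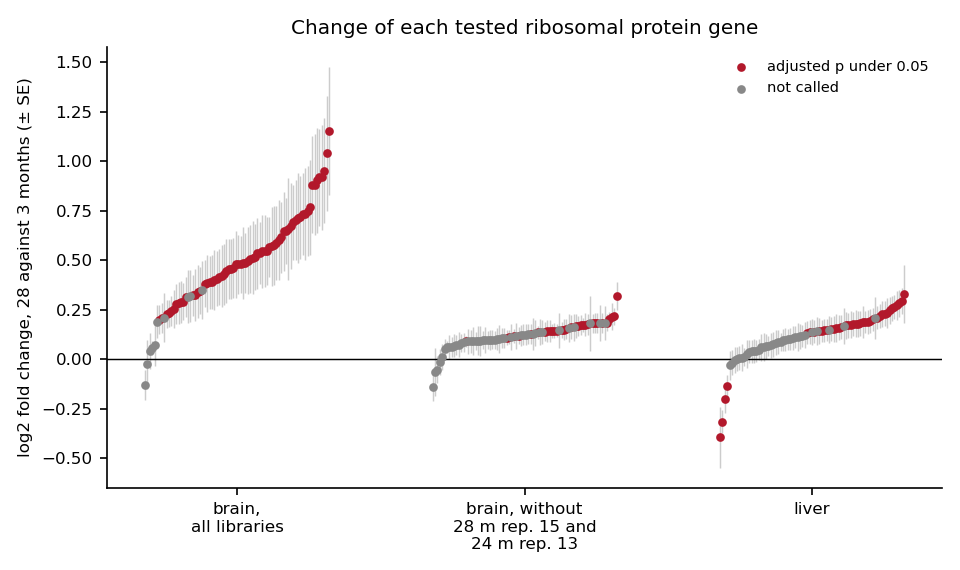
Log2 fold change (y axis) of each tested ribosomal protein gene at 28 against 3 months in brain with all libraries, in brain without replicate 15 of 28 months and replicate 13 of 24 months, and in liver (x axis, genes in order of their change); each point is 1 gene with its SE, and called genes are red. The brain medians are 0.48 with all libraries and 0.12 without the pair, and the liver median is 0.14.

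The same question in liver gave 40 of 77 members called at 28 against 3 months, 36 of them higher and 4 lower. Of all 15579 genes tested, 61.9% were called, with 31.9% higher and 4674 genes lower, so the share of members called (40 of 77) lay below that of all genes. The median was 0.14 beside 0.01 over all genes, and 0.083 by limma voom. The small subunit had 18 higher and 1 lower of 30, the large subunit 18 higher and 3 lower of 47. Of the 40, 37 had 1 sign across the preps. The medians of preps 1, 2 and 3 on their own were 0.24, 0.01 and 0.09. Leaving out 1 library moved the count between 25, without replicate 17 of 28 months (61.5% of all genes called), and 54, without replicate 14 of 28 months (60.9%).

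Other measures of the livers moved with age as well. The clock score had a median of -1.24 at 3 months (range -1.95 to 1.56) and of 1.49 at 28 months (range -1.38 to 4.99). With it as a term 0 members were called higher by edgeR and 3 lower (49.4% of all genes), with a median of 0.02. The short-transcript score had a median of -0.04 at 3 months and of -0.25 at 28 months. With that score as a term 71 members were called higher and 1 lower (58.2% of all genes), with a median of 0.25. With both scores 19 were higher and 1 lower (48.0% of all genes), with a median of 0.12. Summed macrophage markers were at 386 to 1340 CPM at 3 months and 592 to 3950 at 28 months (7 of 7 genes with a higher median), B lineage markers at 10.9 to 56.2 and 55.2 to 1290 (6 of 6), T lineage markers at 1.71 to 18.0 and 6.03 to 32.3 (5 of 5), and markers of proliferating cells at 1.45 to 56.4 and 1.60 to 73.7 (4 of 4). None of these markers was at 0 in every library of an age. Hepatocyte markers were at 57000 to 98600 and 18200 to 110000 CPM. Mitochondrially encoded genes took 4.61% to 5.91% of the counts at 3 months (median 5.32%) and 3.13% to 5.24% at 28 months (median 4.38%). The part of these cells and of the mitochondrial share in the members' changes was not tested.

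Of the small subunit, Rps15a had the largest well-measured rise in liver. Its level was 76.1 CPM at the lowest, 97.3 at the median and 112 at the highest at 3 months, and 86.6, 115 and 158 at 28 months, a log2 fold change of 0.29 ± 0.07 (adjusted p = 8.19e-05). Rps18, a protein of the small subunit's head, stood at 235, 310 and 364 CPM and then at 249, 373 and 557 (0.28 ± 0.07, adjusted p = 0.000223). Rps27 stood at 116, 144 and 185 CPM and then at 116, 175 and 261 (0.27 ± 0.07, adjusted p = 0.00109). In each of these the upper libraries of 28 months lay above all those of 3 months and the lower ones did not. Rps9 rose by 0.26 ± 0.06 (adjusted p = 0.000268), Rps6 by 0.16 ± 0.06 (adjusted p = 0.0175), Rps19 by 0.18 ± 0.07 (adjusted p = 0.0196) and Rps27a by 0.15 ± 0.06 (adjusted p = 0.0279). Rps10, among the members with shared exons, went from a median of 2.06 to 2.66 CPM (0.33 ± 0.15, adjusted p = 0.047) and was called in 15 of 34 fits without 1 library. Rps15a, Rps18 and Rps27 were called in 34 of 34.

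Of the large subunit, Rpl17 rose by 0.26 ± 0.06 (adjusted p = 0.000171), Rpl39 by 0.25 ± 0.07 (adjusted p = 0.00147) and Rpl3 by 0.20 ± 0.06 (adjusted p = 0.00183). Rpl39 stood at 44.1, 57.2 and 65.5 CPM at 3 months and at 47.7, 65.8 and 88.2 at 28 months, and the ages overlapped. Rpl5 rose by 0.14 ± 0.06 (adjusted p = 0.0268). Rpl11 (0.09 ± 0.06, adjusted p = 0.207), Rplp0 (0.12 ± 0.06, adjusted p = 0.0691), Rplp1 (-0.02 ± 0.06, adjusted p = 0.822) and Rplp2 (0.17 ± 0.09, adjusted p = 0.0937) did not pass the test. Rpl10, the most abundant member per kilobase in liver, stood at 448, 584 and 687 CPM and then at 425, 610 and 839 (0.04 ± 0.06, adjusted p = 0.531).

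The 4 members lower in liver at 28 months included the paralogs Rps27l and Rpl36al. Rps27l, a p53-inducible relative of Rps27, stood at 72.8, 96.6 and 112 CPM at 3 months and at 52.9, 78.9 and 91.5 at 28 months, a log2 fold change of -0.31 ± 0.06 (adjusted p = 3.41e-06). Its medians at 3, 9, 15, 24 and 28 months were 96.6, 97.6, 100.0, 81.4 and 78.9 CPM. The lower level was thus seen at the 2 oldest ages, and every group overlapped with the youngest. The gene was called in 34 of 34 fits without 1 library, and remained called with the clock score (-0.31 ± 0.08, adjusted p = 0.000449) and with the short-transcript score as a term (-0.16 ± 0.04, adjusted p = 0.000991), where its change was smaller. Rps27 was higher in the same livers, and the values of both genes in the 3 preps kept those signs.

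Rpl36al, Rpl13a and Rpl35a were also lower. Rpl36al, an intronless relative of Rpl36a, went from a median of 2.31 to 1.92 CPM (-0.39 ± 0.15, adjusted p = 0.0208). Rpl13a, known also for a role in silencing inflammatory messages, went from 11.0 to 9.48 CPM (-0.20 ± 0.07, adjusted p = 0.0113). Both share exons with another gene, as given above, and neither passed the test with the short-transcript score as a term (adjusted p = 0.302 and 0.42). Rpl35a stood at 108, 151 and 190 CPM and then at 102, 135 and 182 (-0.13 ± 0.06, adjusted p = 0.0327). It was called in 24 of 34 fits without 1 library and its log2 fold change was 0.001 with the short-transcript score. With the clock score in its place both Rpl35a (-0.18 ± 0.07, adjusted p = 0.0294) and Rpl13a (-0.22 ± 0.09, adjusted p = 0.0369) were called lower. Rpl36al was not (-0.37 ± 0.20, adjusted p = 0.105).

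**Figure D4:**
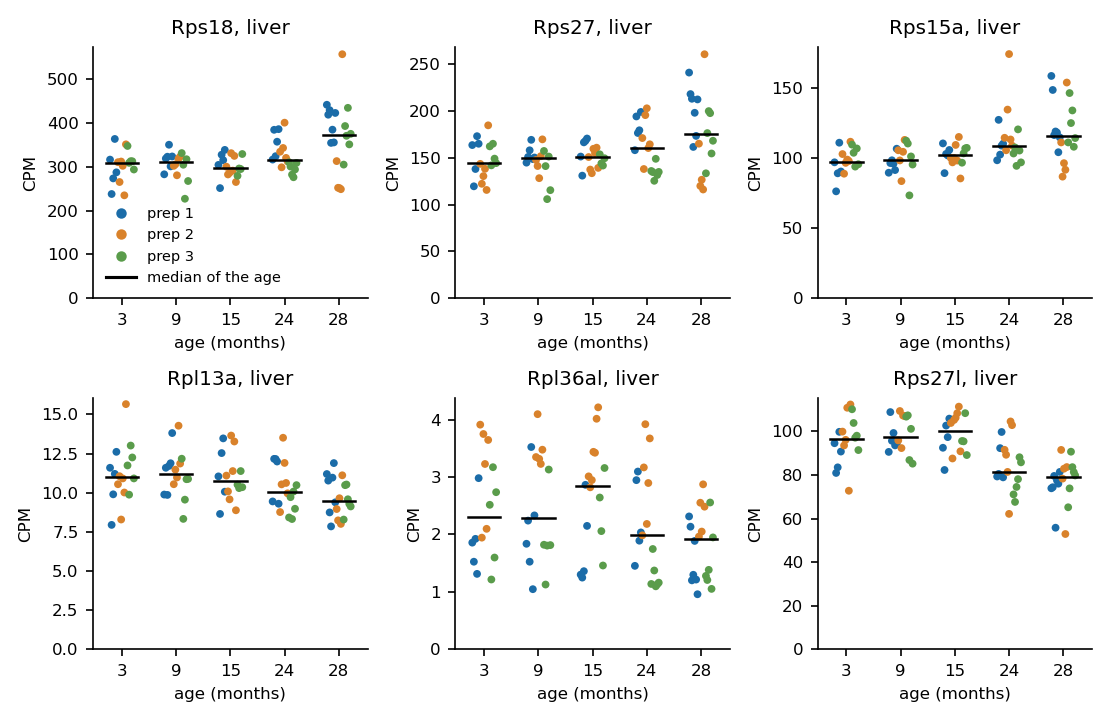
Level (y axis, CPM) of Rps18, Rps27, Rps15a, Rpl13a, Rpl36al and Rps27l in each liver library by age in months (x axis); points are coloured by prep and each black bar marks the median of an age. Rps27l runs from a median of 96.6 CPM at 3 months to 78.9 CPM at 28 months while Rps27 runs from 144 to 175 CPM, with overlapping ranges.

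At 24 against 3 months in liver, 10 members were higher and 2 lower, where 49.0% of all genes were called, 25.0% as higher and 24.0% as lower. Among the called members of at least 1 CPM with 1 sign across the preps, Rpl39 was the highest (0.24 ± 0.07, adjusted p = 0.00275). Rps27l was the lowest of these (-0.19 ± 0.06, adjusted p = 0.00519). All tested members ranged from -0.20 to 0.31. At 9 and at 15 against 3 months edgeR called 0 members (background 4.69% and 7.32%), with 0 at an unadjusted p under 0.05 at both ages. There 731 and 1140 of all 15579 genes passed even the adjusted threshold. DESeq2 and limma voom also called 0. For calls of 0 by these 2 tools the shares of all genes are not given here. At 28 against 24 months edgeR called 0 (background 15.3%), with 4 at an unadjusted p under 0.05 (4484 of all 15579 genes), DESeq2 0 and limma voom 3 (26.7% of all genes). No member had its 3-month and 28-month libraries fully apart in either tissue (0 of 80 in brain and 0 of 80 in liver). Replicate 15 of brain and the members too low for the test were kept in that count. It was made for the members alone, so it cannot show whether they differ from other genes in this.

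A fit over both tissues tested whether the change from 3 to 28 months differed between brain and liver. With all libraries 17 of 78 members differed, 5 of which had 1 sign across the preps. Of the 17, 15 had a larger log2 fold change in brain and 2 a smaller one, where 40.6% of 20328 genes were called and 15.9% had a larger change in brain. Without the pair of brain libraries 6 differed, 3 in each direction (background 41.7%, with 16.2% larger and 25.6% smaller in brain), and the median difference went from 0.27 to -0.02. The 6 were Rpl36al (0.55 ± 0.21, adjusted p = 0.0268), Rps27l (0.27 ± 0.09, adjusted p = 0.00957), Rpl35a (0.25 ± 0.08, adjusted p = 0.00827), Rps15a (-0.23 ± 0.07, adjusted p = 0.00663), Rps10 (-0.49 ± 0.17, adjusted p = 0.0111) and Rpl3l (-1.33 ± 0.40, adjusted p = 0.00399). Rps27l was lower with age in liver and was at a log2 fold change of -0.02 in brain. Rpl3l had at most 3 counts in 12 of 16 liver libraries of 3 months and in 11 of 18 of 28 months, so its fitted fold change is not a measured size. With the mouse as a block, 4 members were called with all libraries (background 36.2%) and 4 without the pair (background 41.0%). They were Rps27l, Rpl36al, Rpl35a and Rps10 in both fits, so that Rps15a and Rpl3l lost the call. With all libraries, the median difference within preps 1, 2 and 3 was -0.22, 0.15 and 0.89, where prep 3 holds brain replicate 15 of 28 months.

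Brain and liver at 3 months were compared to show which members differ most between the tissues. Under TMM scaling, 1 member was higher in brain and 74 were lower of 78, where 92.1% of all genes were called and 40.5% were lower. The median over members was -1.15 and that over all genes 0.31. With library totals in place of TMM, 9 were higher and 48 lower (92.6% of all genes called and 26.9% lower), with medians of -0.35 and 1.10. The choice of scaling thus moved the median of all genes, and the direction of some members with it. Rpl3 was at -0.26 ± 0.11 under TMM and 0.54 ± 0.10 with totals, and Rps15a at -0.26 ± 0.09 and 0.53 ± 0.09. Directions that held under both scalings are given next.

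Rps27l was lowest in brain relative to liver, with a log2 fold change of -4.57 ± 0.09 under TMM and -3.77 with totals. As a share of each library at 3 months it stood at 5.52, 6.48 and 9.23 CPM in brain and at 78.3, 93.0 and 111 in liver, with no overlap. Its partner Rps27 stood at 84.9, 116 and 159 in brain and at 116, 141 and 182 in liver, with overlap. Rpl36al stood at 0.300, 0.601 and 1.03 in brain and at 1.18, 2.30 and 3.79 in liver (-2.71 ± 0.21 and -1.92), while Rpl36a stood at 50.04, 63.7 and 83.5 and at 71.8, 86.2 and 102. Rpl10 was lower in brain (-2.14 ± 0.07 and -1.35) and so was Rplp0 (-2.08 ± 0.08 and -1.29). Rpl3l was the member called higher in brain (1.52 ± 0.31 and 2.29), at 213 counts in the 15 brain libraries and 36 in the 16 liver libraries. It was too low for the test in liver alone and entered this fit through brain. Its fitted fold changes are therefore not measured sizes, and its call is not read further. The levels of Rpl3l were 0.222, 0.319 and 0.436 CPM in brain and 0, 0.0466 and 0.187 in liver, far below those of Rpl3 (medians 433.5 and 308.5).

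**Figure D5:**
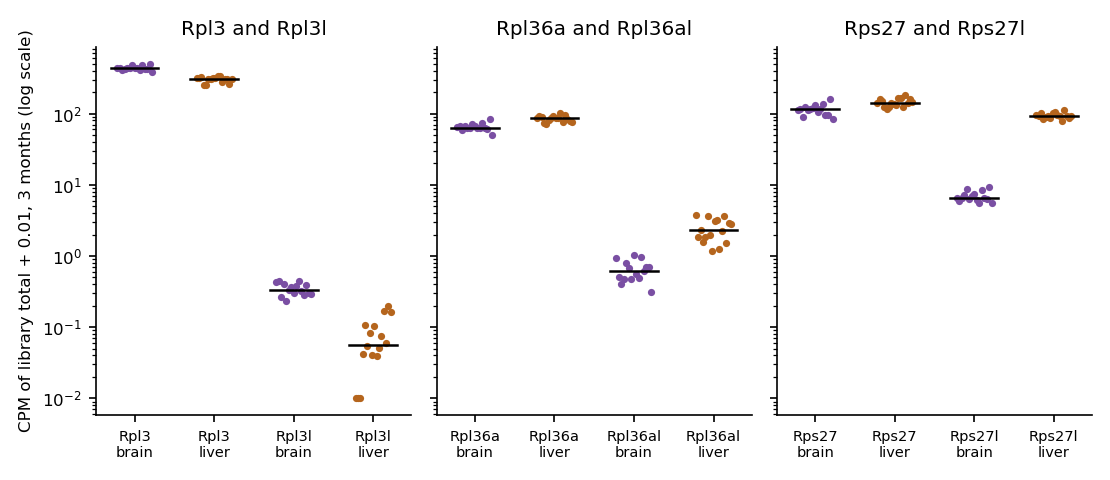
CPM of the library total, plus 0.01 (y axis, log scale), of Rpl3 and Rpl3l, Rpl36a and Rpl36al, and Rps27 and Rps27l in brain and liver at 3 months; each point is 1 library and each black bar marks a median. Rps27l lies at 5.52 to 9.23 in brain and 78.3 to 111 in liver, while the ranges of Rps27 overlap.

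Genes that work with the family were counted from lists. The counts are read against all genes, of which 34.1% were called in brain without both libraries (17.5% higher and 16.6% lower), 28.3% in brain with all libraries (16.3% higher) and 61.9% in liver (31.9% higher and 4674 of 15579 lower). Of 7 ribosomal proteins whose symbols fall outside the pattern, 3 were higher and 1 lower at 28 against 3 months in brain without both libraries, and 1 was higher and 1 lower in liver, where 2 of 7 called is below the share of all genes. All brain libraries together gave 4 higher and 0 lower. Fau, which encodes a ubiquitin-like fusion to a small-subunit protein, rose in both (0.18 ± 0.07, adjusted p = 0.0295 in brain, and 0.18 ± 0.08, adjusted p = 0.0319 in liver). Rpl7l1, a relative of Rpl7, fell by 0.12 ± 0.03 (adjusted p = 0.00151) in brain and by 0.45 ± 0.06 (adjusted p = 5.04e-09) in liver. Rpl22l1 rose in brain (0.14 ± 0.05, adjusted p = 0.0256) and was at 0.01 ± 0.09 in liver (adjusted p = 0.908). With all brain libraries the log2 fold changes of Fau, Rpl22l1 and Rpl7l1 were 0.82, 0.37 and -0.05, and Rpl7l1 did not pass the test (adjusted p = 0.477).

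Of 20 translation factors and other genes with TOP messages, 9 were higher and 1 lower in brain and 6 higher and 3 lower in liver, with medians of 0.06 and 0.03. The share called in liver (9 of 20) lay below that of all genes, and the share higher there was near it. All brain libraries together gave 7 higher and 0 lower. In brain Eif3f (0.23 ± 0.05, adjusted p = 0.000172) and Eif3e (0.20 ± 0.04, adjusted p = 4.23e-05), both subunits of initiation factor eIF3, were the highest, and Eef1d, a subunit of the elongation factor's exchange complex, was lower (-0.08 ± 0.03, adjusted p = 0.017). In liver Hnrnpa1 (0.41 ± 0.09, adjusted p = 2.82e-05) and the elongation factor Eef2 (0.30 ± 0.06, adjusted p = 1.44e-05) were the highest, and Eif3l (-0.21 ± 0.03, adjusted p = 1.24e-07) and Eef1g (-0.17 ± 0.05, adjusted p = 0.00338) the lowest. In brain Eef2 was at 0.00 ± 0.04 (adjusted p = 0.998). With all brain libraries Eif3f was at 0.61, Eif3e at 0.21 and Eef2 at -0.01, while Eef1d was at 0.25 ± 0.14 and did not pass the test (adjusted p = 0.179).

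Of 34 ribosome biogenesis factors, 1 was higher and 17 lower in liver (median -0.20), and 4 were higher and 10 lower in brain (median -0.02). The share called was below that of all genes in liver (18 of 34) and near it in brain (14 of 34). In brain with every library, 5 were higher and 6 lower. In liver Bysl, which acts in the maturation of the small subunit, fell by 0.54 ± 0.11 (adjusted p = 1.07e-05) and Tsr1, of the same pathway, by 0.50 ± 0.14 (adjusted p = 0.00109), while Ncl, the nucleolar protein nucleolin, rose by 0.22 ± 0.05 (adjusted p = 1.78e-05). In brain Heatr1 fell by 0.37 ± 0.05 (adjusted p = 6.26e-10) and the ribosomal RNA methyltransferase Dimt1 by 0.30 ± 0.04 (adjusted p = 8.82e-08), while the nucleolar GTPase Gnl3 rose by 0.24 ± 0.04 (adjusted p = 6.93e-07). Of 14 tested genes of RNA polymerase I and its factors, which make the ribosomal RNA precursor, 2 were higher and 5 lower in brain and 2 higher and 7 lower in liver, where 9 of 14 is near the share of all genes called. In brain with every library, 2 were higher and 1 lower. Polr1e was lower in both, by a log2 fold change of -0.14 ± 0.04 (adjusted p = 0.00833) in brain and -0.53 ± 0.13 (adjusted p = 0.000186) in liver. With all brain libraries Heatr1 (-0.42), Dimt1 (-0.35) and Gnl3 (0.21) were still called and Polr1e (-0.10, adjusted p = 0.144) was not.

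Of 19 regulators of mTORC1 and of TOP messages, 1 was higher and 3 lower in brain, and 5 were higher and 7 lower in liver. The share called was near that of all genes in liver (12 of 19) and below it in brain (4 of 19). In brain with every library, 0 were higher and 2 lower. Myc, a transcription factor for ribosomal genes, rose by 0.17 ± 0.07 (adjusted p = 0.0394) in brain and by 1.23 ± 0.33 (adjusted p = 0.000892) in liver. In liver Ddit4, an mTORC1 inhibitor, also rose (0.69 ± 0.19, adjusted p = 0.00153), while Deptor, another inhibitor, fell by 0.50 ± 0.09 (adjusted p = 1.17e-06) and the mTORC1 activator Rheb by 0.25 ± 0.04 (adjusted p = 8.33e-07). Eif4ebp2, a repressor of cap-dependent initiation, fell by 0.18 ± 0.03 (adjusted p = 2.69e-07) in brain. With all brain libraries Eif4ebp2 was at -0.22 and still called, and Myc was at 0.14 ± 0.07 and not called (adjusted p = 0.148).

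Further families of short messages were counted beside the members. Of 77 tested mitochondrial ribosomal protein genes, 1 was higher and 68 lower in liver, with a median of -0.31, against 36 higher and 4 lower of 77 cytosolic members and 4674 lower of all 15579 genes. Mrpl38 (-0.66 ± 0.06, adjusted p = 2.41e-14) was among the lowest and Mrpl23 (0.24 ± 0.07, adjusted p = 0.00391) was the one higher. Of 73 nuclear genes of oxidative phosphorylation, 0 were higher and 67 lower in liver, with a median of -0.33; Cox7a2 (-0.57 ± 0.07, adjusted p = 9.68e-11) and Ndufb3 (-0.55 ± 0.07, adjusted p = 1.19e-10) were the lowest. With the short-transcript score as a term, 3 mitochondrial ribosomal protein genes were higher and 52 lower, and 2 oxidative phosphorylation genes were higher and 51 lower, where 58.2% of all genes were called and 29.1% were lower. In brain without both libraries, 7 mitochondrial ribosomal protein genes were higher and 15 lower (median -0.03), and 8 of 75 oxidative phosphorylation genes were higher and 1 lower (median 0.01), both below the 34.1% of all genes called. With all brain libraries the counts were 10 higher and 1 lower, and 24 higher and 0 lower, where 28.3% of all genes were called.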

How the data were processed

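Tissue RNA of brain and liver was measured in 165 libraries. The authors deposited 1 table of whole-number counts per gene for each tissue. Per the submitters' processing notes, the tools were cutadapt 2.8, HISAT2 2.1.0, SAMtools 1.9 and featureCounts of Subread 2.0.1, with builds GRCm38.p6 and mm10. The annotation release, the strand setting and the treatment of multi-mapping reads are not given in the sources used here. Of 55471 identifiers, 55144 were matched to a symbol.

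The deposited counts were analysed per tissue with edgeR 4.0.16 (R 4.3.3). The steps were filterByExpr by age, TMM scaling and a quasi-likelihood fit with age and prep as terms, and Benjamini-Hochberg adjustment ran over every gene tested, with a threshold of 0.05. A joint fit over both tissues tested the difference of the changes. DESeq2 1.42.0, limma 3.58.1 (voom with sample weights), other scaling, no filter, single preps, score terms, blocks and leaving out each library of 3 or 28 months were the alternatives; the scripts were tested on simulated data. Transcript lengths and exon overlaps come from GENCODE M21, and promoter sequence from RefSeq (GRCm38.p6).

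Named are the called members with the largest changes whose mean was 1 CPM or more and whose sign was shared by the preps (5 per direction and tissue at 28 against 3 months, 1 at other ages), the largest differences between tissues, the 3 highest per kilobase, the paralog pairs, textbook members, and up to 2 genes per direction from each list. Rpl10, Rplp0, Rps9, Rps2, Rpl4, Rpl17 and Rps4x were in part named after their values were seen. The members and lists were chosen with earlier results of these data known. Mice of different ages were taken as different animals whatever their number. Deviations of libraries with the same number correlated at a median of 0.01 in both tissues, with 26.1% of brain pairs and 20.5% of liver pairs over 0.1. For mice with a brain and a liver library (82 pairs, taken from the labels) the median was 0.05, with 19 pairs over 0.1. The measure thus cannot tell libraries of the same animal from those of different animals. Library totals of 5823039 to 73390216 counts set the precision, and counting error weighs most for members of a few CPM or less.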

Additional observations from a re-analysis of the deposited data

Results flagged for a closer look

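The change from 3 to 28 months differed between brain and liver, by an edgeR test of the difference itself, for 17 of 78 ribosomal protein genes, a share below the 40.6% of all 20328 genes called. Of the 17, 5 had the same sign in each prep. With the mouse as a block, Rps27l, Rpl36al, Rpl35a and Rps10 were called and the other 13 were not. The difference is given as the log2 fold change in brain minus that in liver. It was 1.01 for Rpl36al, 0.85 for Rpl24, 0.76 for Rps15, 0.74 for Rps21, 0.72 for Rpl36, 0.65 for Rpl38, 0.63 for Rpl37a, 0.62 for Rplp2, 0.62 for Rplp1 and 0.59 for Rpl41. It was 0.49 for Rpl14, 0.48 for Rps14, 0.47 for Rpl35a, 0.43 for Rps26 and 0.31 for Rps27l. It was -0.50 for Rps10 and -1.30 for Rpl3l.

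Without brain replicate 15 of 28 months and replicate 13 of 24 months, Rpl36al (0.55), Rps27l (0.27), Rpl35a (0.25) and Rps10 (-0.49) still differed. Rpl3l (-1.33) was called there too, but not with the mouse as a block in the same libraries (-0.88 ± 0.48). It was too low for the test in liver alone, so this call is not read further. The other 12 lay between -0.08 (Rplp2) and 0.13 (Rps21) and did not pass the test. Rps15a (-0.23) passed it in that fit and not with all libraries (-0.02). With the mouse as a block and without the pair Rps15a was at -0.17 ± 0.07 and not called. Rpl36al, Rpl24 and Rps10 share exons with other genes, and Rpl3l is near the detection limit in liver.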

How the results depend on the processing

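The share of all genes called under the same setting stands in brackets after each count of members. In brain, members called at 28 against 3 months went from 68 (28.3%) to 22 by DESeq2 (30.5%), 1 with only the 3- and 28-month libraries (17.0%), 0, 0 and 11 within preps 1, 2 and 3 (10.6%, 1.96% and 6.36%), 38 with the replicate block (25.9%), 22 with the short-transcript score (33.2%), 7 with the clock score (29.9%; 0 higher and 7 lower, where the 68 were all higher), 6 without replicate 15 of 28 months (29.4%) and 32 without the pair of short-rich libraries (34.1%). Without the pair, adding a choice made after seeing the data gave 28 with the short-transcript score (37.3%), 8 with the clock score (29.6%), 21 with both scores (32.5%), 31 with the replicate block (33.0%), 64 by limma voom (40.8%, all higher), 38 without the libraries high in choroid plexus or pituitary markers (31.1%) and 0, 0 and 43 in preps 1, 2 and 3 (10.6%, 4.33% and 16.4%). The median of 0.48 went to 0.14 by limma voom, to 0.026, 0.17 and 1.04 within preps, to 0.044 with the short-transcript score, -0.20 with the clock score, 0.13 without replicate 15 and 0.12 without the pair. Without the pair it was 0.14 by limma voom, 0.038 (short-transcript score), 0.0032 (clock score), 0.021 (both), 0.12 (replicate block), 0.15 (without libraries high in choroid plexus or pituitary markers) and 0.026, 0.16 and 0.18 (preps). Leaving out 1 library gave 6 to 72 calls (24.8% to 29.8%) and medians of 0.13 to 0.51. The clock score of replicate 15, at 4.435 the highest in brain, enters the clock score fit with all libraries.

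At 24 against 3 months in brain the count of 0 (10.1%) became 48 by limma voom (26.5%), 5 with the short-transcript score (17.3%), 6 without the pair (17.1%) and 46 without replicate 15 alone (18.7%). Without the pair it was 7 with the short-transcript score (18.5%), 5 with the clock score (16.9%), 7 with both (19.1%), 7 with the replicate block (15.1%), 48 by limma voom (25.8%), 20 without the libraries high in choroid plexus or pituitary markers (15.9%) and 1 in prep 3 (3.89%). At 15 months 1 was called without the pair by limma voom (4.45%). At 28 against 24 months it was 1 with the short-transcript score (4.36%), 60 with the clock score (19.9%, all lower), 8 without replicate 13 (2.72%, all higher), and 1 without the pair with the short-transcript score (6.50%).

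In liver, the 40 calls at 28 months (61.9%) became 17 by limma voom (59.8%), 20 with no filter (35.1%), 21 with only the ages compared (56.8%), 37 in prep 1 (39.9%), 0 in prep 2 (15.6%), 6 in prep 3 (42.2%), 23 with the replicate block (60.9%), 72 with the short-transcript score (58.2%), 3 with the clock score (49.4%) and 20 with both (48.0%). The liver median of 0.14 was 0.083 by limma voom. Leaving out 1 library gave 25 to 54 calls (60.0% to 62.6%) and medians of 0.10 to 0.17. The 12 calls at 24 months (49.0%) became 3 by limma voom (46.6%), 4 with no filter (25.5%), 1, 0 and 4 within preps 1, 2 and 3 (5.83%, 15.5% and 33.4%), 24 with the short-transcript score (51.4%) and 7 with the clock score (49.7%). At 28 against 24 months 3 were called by limma voom (26.7%), 1 with no filter (6.97%) and 31 with the short-transcript score (11.6%). The 17 differences between tissues (40.6%) became 28 by DESeq2-type size factors (41.6%), 6 by limma voom (39.8%), 9 with no filter (18.7%), 6 without the pair (41.7%), 2, 0 and 34 within preps (20.0%, 6.58% and 21.4%), 10 with library totals (40.2%), and 4 with the mouse as replicate block, with or without the pair (36.2% and 41.0%).

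Signs under other settings were listed for the named members only. In brain at 28 against 3 months with all libraries, 52 of the 68 called members had 1 sign across the preps. Of single named members in brain, prep 1 alone turned Rpl36al (-0.10), Rplp1 (-0.033), Rplp2 (-0.019) and Rps15 (-0.00054). The short-transcript score turned Rpl36a (-0.013) and Rplp1 (-0.021). The clock score, with all libraries, turned Rpl10 (-0.046), Rpl11 (-0.25), Rpl14 (-0.16), Rpl17 (-0.13), Rpl21 (-0.10), Rpl24 (-0.35), Rpl3 (-0.076), Rpl35a (-0.15), Rpl36a (-0.33), Rpl36al (-0.22), Rpl38 (-0.25), Rpl39 (-0.0015), Rpl5 (-0.010), Rplp0 (-0.12), Rplp1 (-0.33), Rplp2 (-0.34), Rps15 (-0.31), Rps15a (-0.12), Rps18 (-0.15), Rps19 (-0.22), Rps21 (-0.31), Rps27 (-0.23), Rps27a (-0.15), Rps28 (-0.29), Rps29 (-0.30), Rps4x (-0.10) and Rps6 (-0.038). In liver the short-transcript score turned Rpl35a (0.00097) and the clock score Rpl14 (-0.00096). The brain values with the clock score come from a fit that keeps replicate 15, whose score of 4.435 was the highest in brain. The cause of these changes was not tested. Of 403 liver values of named members under other settings, 296 kept their direction and their side of the threshold, and of 427 brain values 254 did. Numbers pair no mice within a tissue, so calls lost under that block are not read further. Depth limits Rpl10l, Rpl39l and Rpl3l.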
